A study of Mus musculus with 6 samples.

Results

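Imprinted genes are expressed mainly from the copy inherited from one parent, and 10 of the best known in the mouse were followed here in double-negative thymocytes, precursors of T cells at a stage before CD4 and CD8 appear. The genes were Igf2, H19, Igf2r, Peg3, Mest, Dlk1, Ndn, Snrpn, Grb10 and Plagl1. Every probe set that the platform's annotation assigns to exactly one of them was taken, dim ones included, which gave 15 of the 12422 probe sets of the array that are not controls, belonging to 8 of 8251 annotated genes. H19 had only a probe set shared with a second annotated gene, so it was not used, and for Snrpn no probe set of its own was found in the annotation used here. Total RNA was hybridised to 6 single-colour Affymetrix arrays: 3 of RAG1/Ezh2 double mutant mice (double mutant below) and 3 of RAG1-deficient mice. By their labels both groups lack RAG1, part of the recombinase that joins antigen receptor segments, without which thymocytes stay at this stage, and the comparison asks what changes when the histone methyltransferase Ezh2 is mutated as well. The Rag1 probe set was bright on all 6 arrays (5394, 5226 and 5171 on double mutant arrays, against 6933, 7241 and 7264 on RAG1-deficient arrays), and whether it lies in the mutated stretch is not known here, so it does not check the label. The labels give neither the alleles, the strain, the sex nor the age, and leave unstated whether each sample is a different animal. P-values therefore cover the variation among these samples alone, and this may be technical.

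In many imprinted regions, though not in all, the parental copies differ in DNA methylation laid down in the germ line, and there this difference decides which copy is read. Many imprinted genes act on growth: those read from the paternal copy, such as Igf2, Dlk1, Mest, Peg3 and Plagl1, are mostly active in the embryo and placenta and fall after birth. Igf2r and, in most tissues, Grb10 are read from the maternal copy and restrain growth. Ezh2 is the catalytic subunit of the Polycomb repressive complex 2, an enzyme that methylates lysine 27 of histone H3; in the mouse placenta this complex is known to help keep the silent copy of some imprinted genes shut. The arrays measure both parental copies together and cannot tell them apart.

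The sample titles come in 3 styles, here called numbered, Rag and Thy, and both groups have 1 array in each style. Replicates 1, 2 and 3 of both groups have the numbered, Rag and Thy style, and values below are given in this order. The arrays of a style deviated together (correlations of 0.570, 0.736 and 0.602 across probe sets), so each comparison was fitted with group alone (unpaired) and with title style as a block (paired). Between 55.2% and 64.3% of the probe sets of an array lay above 86.5 intensity units, the level that a probe set had to exceed on at least 3 of the 6 arrays to be tested, and 7642 did. Ezh2 itself was read at 292, 651 and 724 on double mutant arrays, against 1435, 1641 and 1790 on RAG1-deficient arrays (log2 difference -1.60 ± 0.34 SE, limma adjusted p = 0.332 unpaired and 0.0261 paired). RAG1-deficient replicate 1 stood apart with a strong CD8 signal, Cd8a at 2973 and Cd8b1 at 8426, while no other array exceeded 81.3 for Cd8a or 164 for Cd8b1. Cd4 was at 273, 101 and 52.3 on double mutant arrays, against 699, 184 and 172 on RAG1-deficient arrays. Its log2 difference was -1.13 (paired limma adjusted p = 0.0827). Of 4 markers of the later stage with CD4 and CD8, Cd4 and Cd8b1 were lower in each pair, and Cd8a and Ccr9 were not. Of 10 tested double-negative markers 1 lay above and 9 below 0, and 0 passed in either limma fit. Of 5 tested markers of natural killer and other innate cells, the granzyme genes Gzma and Gzmb rose in the paired limma fit (log2 differences 1.79 and 1.31, adjusted p = 0.00356 and 0.0261), while the receptor genes Klrd1, Klrk1 and Ncr1 overlapped (-0.32, 0.36 and 0.45). The summed level of these 5, 7395 to 9806 on double mutant arrays against 2454 to 3972 on RAG1-deficient arrays, was mostly Gzma. Both tested endothelial markers of 7 on the array, Eng and Pecam1, overlapped between the groups (log2 differences 0.59 and 0.13). Eng was higher in all 3 pairs and made up most of the summed level of the 7. That sum was 2951, 2249 and 2280 on double mutant arrays, against 1831, 2244 and 1592 on RAG1-deficient arrays, without overlap but nearly level in the Rag pair. Of 6 tested myeloid markers, S100a8 and S100a9 were at 4809 and 3706 on RAG1-deficient replicate 2, against at most 1524 and 1128 on any other array. The red cell gene Hba-a1 was at 794 and 375 on the Thy arrays, against 16352 to 30031 on the numbered and Rag arrays. Of the tested myeloid and erythroid markers, 0 passed in either limma fit. The part of these cells in the differences below was not tested.

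The stretches just upstream of these genes differ widely in their number of CpG, the dinucleotide that carries DNA methylation. In the 250 bases before each annotated start (RefSeq, GRCm38.p6), 14 windows were found for all 8 genes, with 1 to 40 CpG each, against a median of 6 over 32851 windows of all genes. Igf2 has several starts, and its windows hold from 1 to 22 CpG. Shown first, with CpG in capitals and 5′ to 3′, are the Igf2 windows with most and fewest CpG (chr7:142658805-142659054 and chr7:142666817-142667066, both minus strand) and the Igf2r window with 27 CpG (chr17:12769707-12769956, minus strand), since these genes encode the ligand and receptor described next.

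Igf2, 22 CpG: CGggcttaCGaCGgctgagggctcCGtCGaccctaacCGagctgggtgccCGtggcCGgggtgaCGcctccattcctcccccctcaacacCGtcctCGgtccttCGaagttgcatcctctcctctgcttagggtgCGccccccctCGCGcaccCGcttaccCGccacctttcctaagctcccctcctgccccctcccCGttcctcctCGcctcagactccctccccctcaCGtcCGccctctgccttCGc
Igf2, 1 CpG: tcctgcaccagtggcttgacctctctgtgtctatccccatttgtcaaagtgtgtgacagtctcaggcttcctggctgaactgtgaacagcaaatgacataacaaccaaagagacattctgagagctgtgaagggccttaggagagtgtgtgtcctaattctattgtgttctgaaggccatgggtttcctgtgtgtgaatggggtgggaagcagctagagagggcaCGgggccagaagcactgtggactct
Igf2r, 27 CpG: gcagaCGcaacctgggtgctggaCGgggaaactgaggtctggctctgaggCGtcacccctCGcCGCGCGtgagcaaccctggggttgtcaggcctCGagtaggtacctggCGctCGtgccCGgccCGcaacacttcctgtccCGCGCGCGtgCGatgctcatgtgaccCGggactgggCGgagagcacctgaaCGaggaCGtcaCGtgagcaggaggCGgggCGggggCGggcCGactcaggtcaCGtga

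The hexamer TGCCGC, known as the site read by the imprint-keeping zinc finger protein Zfp57 when methylated, was searched on both strands of the same windows. It was present in 8.68% of all windows and in 3 of the 14 windows of these genes, 1 of Plagl1 and 2 of Mest, which overlap almost fully. The windows of Mest (chr6:30737800-30738049, plus strand) and Plagl1 (chr10:13090582-13090831, plus strand) follow with the hexamer, here as its reverse complement, in capitals. A match describes the letters only, and neither gene gave a signal above the filter in these cells.

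Mest: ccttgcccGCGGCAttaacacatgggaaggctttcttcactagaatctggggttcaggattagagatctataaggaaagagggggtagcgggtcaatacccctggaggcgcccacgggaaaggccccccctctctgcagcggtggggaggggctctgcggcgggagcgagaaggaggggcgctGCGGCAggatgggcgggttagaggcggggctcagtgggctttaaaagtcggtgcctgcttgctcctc
Plagl1: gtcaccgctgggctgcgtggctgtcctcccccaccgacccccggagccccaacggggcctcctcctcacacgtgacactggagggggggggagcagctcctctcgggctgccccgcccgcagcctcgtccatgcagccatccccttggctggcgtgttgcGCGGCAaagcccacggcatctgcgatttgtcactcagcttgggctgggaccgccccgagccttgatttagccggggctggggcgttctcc

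None of the 8 imprinted genes with a probe set changed past the threshold in double mutant thymocytes. Of the 15 probe sets, 5 were bright enough to test, 33.3% against 61.5% of all probe sets, and these were 1 each of Igf2, Igf2r, Peg3, Dlk1 and Ndn. In the unpaired limma fit 0 of 5 passed an adjusted p of 0.05 in either direction, beside 0.0393% of all tested probe sets called higher and 0.0% called lower. In the paired limma fit 0 of 5 passed as well, beside 0.563% called higher and 0.105% called lower. At an unadjusted p under 0.05, the unpaired limma fit had 1 lower (Igf2) and 0 higher, beside 0.903% lower and 2.29% higher of all tested probe sets. At the same limit the paired limma fit had 1 lower (Igf2) and 1 higher (Igf2r), beside 5.4% lower and 7.73% higher. The median log2 difference of the 5 was 0.17, against 0.00 over all tested probe sets, with 3 above and 2 below 0. This median was -0.13 without double mutant replicate 3, with 2 above 0, and -0.02 without the Thy pair; leaving out double mutant replicate 2 gave 0.44, and leaving out RAG1-deficient replicate 2 gave 0.0013, so its direction depended on the arrays used. All differences are double mutant minus RAG1-deficient and on the scale log2(intensity + 23), on which differences of dim probe sets come out too small.

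Igf2, which encodes a fetal growth factor of the insulin family, had the one tested probe set whose groups did not overlap. Its intensities were 411, 465 and 345 on double mutant arrays, against 957, 673 and 515 on RAG1-deficient arrays. Every double mutant array thus lay below every RAG1-deficient array, although the RAG1-deficient arrays spread over a wider range than the gap between the groups. The means were 407 ± 60.5 in the double mutant and 715 ± 224 in the RAG1-deficient group (SD, n = 3 each), a log2 difference of -0.74 ± 0.27 (SE) with a 95% interval between -1.37 and -0.12. The difference did not pass in the unpaired limma fit (unadjusted p = 0.0245, adjusted p = 0.9999) or in the paired limma fit (unadjusted p = 0.00349, adjusted p = 0.155). By pair it was -1.17 (numbered), -0.51 (Rag) and -0.55 (Thy). Permuting the arrays between the groups (exact, two-sided) gave p = 0.1, the smallest that 3 arrays against 3 allow. Of all tested probe sets 2.92% lay lower without overlap, and 3.61% had a log2 difference at least as large in either direction.

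The size of the Igf2 difference varied with the arrays used. Without RAG1-deficient replicate 1, the array with the CD8 signal, the log2 difference was -0.52 (unpaired adjusted p = 0.999 in limma), and without the numbered pair it was -0.53 (paired adjusted p = 0.357). Without the Rag pair it passed (log2 difference -0.86, paired limma adjusted p = 0.0324), a fit that takes its spread largely from pooling over probe sets, as only 2 arrays per group are left. A second Igf2 probe set, made against the same sequence, lay under the filter on all 6 arrays and ran the other way, at 60.8, 7.6 and 15.9 on double mutant arrays, against 12.6, 3.8 and 12.4 on RAG1-deficient arrays. The lower Igf2 signal was thus seen with 1 of 2 probe sets.

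Markers of cells other than thymocytes were set beside Igf2, which in the thymus is known chiefly from epithelial cells. In bulk RNA, fewer cells of a type and less RNA per cell cannot be told apart. Of 9 thymic epithelial markers 8 were on the array and 5 tested, of which 4 lay below 0 and 0 passed in either limma fit. The summed intensity of the 8 was 4234, 2870 and 1096 on double mutant arrays, against 5341, 4367 and 1100 on RAG1-deficient arrays. It was lower in the numbered and Rag pairs and almost equal in the Thy pair. In the Thy pair the tested Krt18, Krt8 and Ccl25 were higher (0.64, 0.51 and 0.19 on the log2 scale). Epcam and Cldn4 were lower there (-0.26 and -0.17). The epithelial regulator Foxn1 and the keratins Krt5 and Krt14 lay under the filter, at 7.5 to 67.0. Cldn4, a tight junction gene, was the only tested one of the list without overlap and was lower in each pair. It was at 453, 197 and 511 on double mutant arrays, against 1159, 647 and 577 on RAG1-deficient arrays. Stromal and fibroblast markers, cells in which several imprinted genes are strong, summed to 2479 to 3320 in the double mutant and 2335 to 2896 in the RAG1-deficient group. Of 9 tested, 2 lay above and 7 below 0, and 1, Pdgfrb, rose in the paired limma fit (log2 difference 1.22 ± 0.18 SE in that fit, adjusted p = 0.0436). Of the markers of dendritic and other antigen-presenting cells, 7 of 7 tested lay below 0 and 0 passed in either limma fit. They summed to 19342, 9259 and 4337 on double mutant arrays, against 28313, 21257 and 4488 on RAG1-deficient arrays. This sum was lower in the numbered and Rag pairs and almost equal in the Thy pair, where H2-Aa and H2-Ab1 were higher (0.24 and 0.3 on the log2 scale). Of the 7, Itgax and Ccl22 did not overlap (log2 differences -0.36 and -0.42). A lower value without overlap, as in Cldn4 and these 2, was seen for 2.92% of all tested probe sets. The part of these cell types in the Igf2 difference was not tested.

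**Figure D1:**
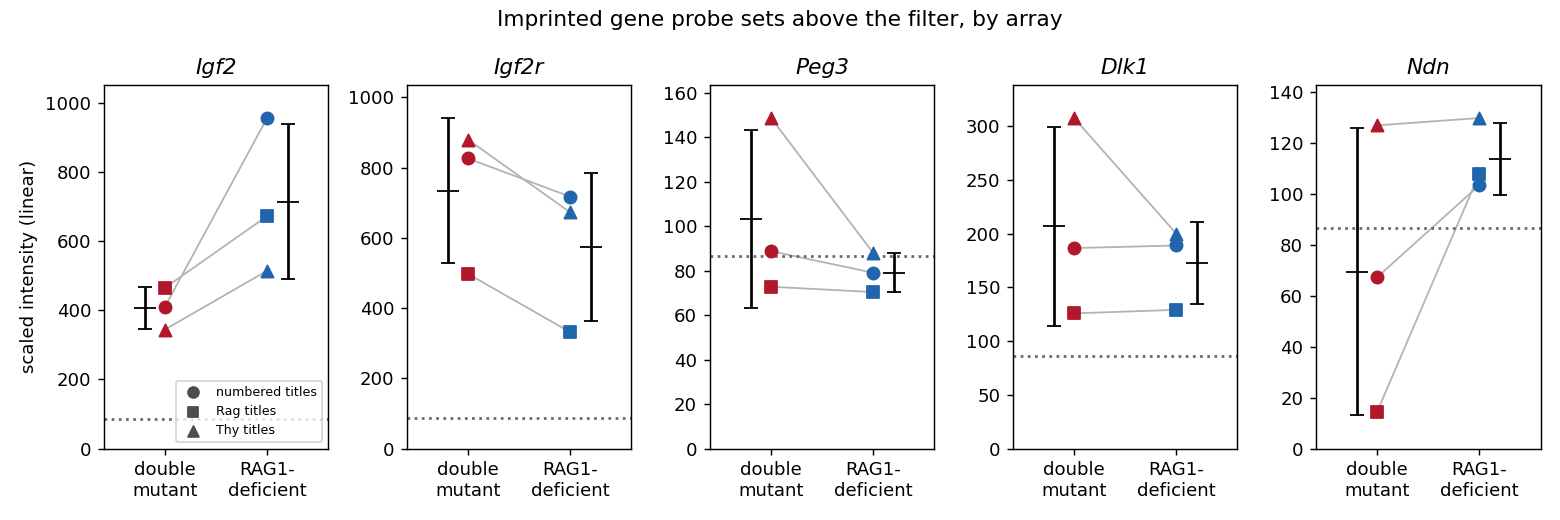
Scaled linear intensity of the 5 imprinted gene probe sets above the filter, double mutant arrays in red on the left and RAG1-deficient arrays in blue on the right of each panel, with lines joining arrays of one title style, black bars for mean ± SD (n = 3) and a dotted line at the filter level of 86.5. Igf2 separated the groups (345 to 465 against 515 to 957), and the groups of the other 4 overlapped.

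Igf2r, the receptor that takes Igf2 up and carries it to the lysosome, lay above 0, opposite to the tested Igf2 probe set but on the side of the dimmer one. Its intensities were 826, 498 and 880 on double mutant arrays, against 717, 332 and 673 on RAG1-deficient arrays. The groups overlapped, with both Rag arrays the lowest, but within each pair the double mutant array was the higher one, by 0.20, 0.55 and 0.38 on the log2 scale. The log2 difference was 0.38 ± 0.35 (SE), with a 95% interval between -0.42 and 1.17 in the unpaired fit and between 0.04 and 0.71 in the paired fit. It missed the threshold in both limma fits (adjusted p = 0.9999 unpaired and 0.332 paired). Without RAG1-deficient replicate 2 the unpaired log2 difference was 0.04, so the size of the unpaired value depended on that array. A higher value in all 3 pairs was common, at 18.8% of all tested probe sets, and a lower one in all 3 was seen for 17.1%.

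Grb10, an adaptor that binds the insulin and Igf1 receptors and dampens their signal, was dim throughout. None of its 3 probe sets exceeded the filter on any array. The brightest gave 22.4, 27.2 and 70.1 on double mutant arrays, against 46.7, 42.3 and 47.9 on RAG1-deficient arrays, with a log2 difference of -0.20. The other 2 gave 0.05 and -0.16, and all 3 were lower in the numbered pair and higher in the Thy pair.

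Further genes of the insulin-like growth factor system included Igf1r, which was higher on every double mutant array but missed the threshold. Of 18 listed genes 14 were on the array and 5 were tested, 2 above and 3 below 0, and 0 passed in either limma fit. Igf1r, the receptor through which Igf1 and Igf2 signal, was at 1315, 1080 and 2042 on double mutant arrays, against 646, 451 and 339 on RAG1-deficient arrays. The groups did not overlap, which held for 4.21% of all tested probe sets in this direction. The log2 difference was 1.58 ± 0.32 (SE), with a 95% interval between 0.85 and 2.30, higher in all 3 pairs (1.0, 1.22 and 2.51), and it did not pass (limma adjusted p = 0.301 unpaired and 0.0610 paired). It passed without the Rag pair (log2 difference 1.76, paired limma adjusted p = 4.84e-09), where 2 arrays per group were left. That fit takes its spread largely from pooling over probe sets, so this p-value does not measure the spread between the pairs. The fit called 127 probe sets higher and 64 lower, against 43 and 8 in the paired fit with all arrays. Passes of Igfbp4 and Gab1 given below come from the same fit. Igfbp4, a binding protein of these factors, was at 273, 243 and 641 on double mutant arrays, against 215, 98.8 and 198 on RAG1-deficient arrays. Its log2 difference of 1.01 ± 0.42 (SE) did not pass (paired limma adjusted p = 0.173) except without the Rag pair (0.0400), and 2 further probe sets of Igfbp4 showed 0.27 and 0.22. The log2 difference was -0.26 for the brighter probe set of the growth factor gene Igf1 and 0.12 for the other, -0.59 for the adaptor Irs2 and -0.05 for the binding protein Igfbp6.

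Dlk1, a transmembrane relative of the Notch ligands known from fetal and progenitor cells, was above the filter on all 6 arrays. It gave 187, 126 and 308 on double mutant arrays, against 189, 129 and 200 on RAG1-deficient arrays. The numbered and Rag pairs were nearly level (-0.02 and -0.03 on the log2 scale) and the Thy pair differed by 0.57. The log2 difference was 0.17 ± 0.36 (SE), with a 95% interval between -0.65 and 1.0, and turned to -0.13 without double mutant replicate 3.

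The zinc finger genes Plagl1 and Peg3 and the hydrolase-like gene Mest were near or under the filter. Peg3, which takes part in growth control and cell death, had one tested probe set, a type that can detect related transcripts, at 88.8, 72.8 and 149 on double mutant arrays, against 79.1, 70.4 and 88.0 on RAG1-deficient arrays. Only double mutant replicate 3 was well above the others, and the log2 difference was 0.27 ± 0.40 (SE) with all arrays and 0.02 without it. The other 2 Peg3 probe sets were dimmer and gave -0.21 and -0.16. Plagl1, a transcription factor that acts on other imprinted genes and on the cell cycle, stayed at or under 29.7 in both probe sets. Its brighter one gave 29.7, 7.9 and 29.4 on double mutant arrays, against 22.2, 2.1 and 3.2 on RAG1-deficient arrays. The double mutant array was higher in each pair, the groups overlapped, and the log2 difference was 0.51, while the second Plagl1 probe set gave -0.06. Mest lay at 23.4, 26.5 and 61.4 on double mutant arrays, against 8.3, 19.7 and 38.0 on RAG1-deficient arrays, with a log2 difference of 0.42.

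Ndn, a MAGE family gene that restrains cell division, was tested through 1 of its 2 probe sets. That probe set gave 67.2, 14.4 and 127 on double mutant arrays, against 103, 108 and 130 on RAG1-deficient arrays. The double mutant was lower in each pair, but unevenly, with -1.81 for Rag, -0.49 for numbered and -0.03 for Thy. The log2 difference was -0.77 ± 0.55 (SE), with a 95% interval between -2.03 and 0.48, and was -0.23 without double mutant replicate 2, so it rested mainly on that array. The probe set exceeded the filter on all RAG1-deficient arrays but on only 1 double mutant array, and thus entered the test mainly through the group where it is higher. It missed the threshold in both limma fits (adjusted p = 0.9999 unpaired and 0.452 paired). The second probe set lay between 3.0 and 37.7 and gave -0.04.

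**Figure D2:**
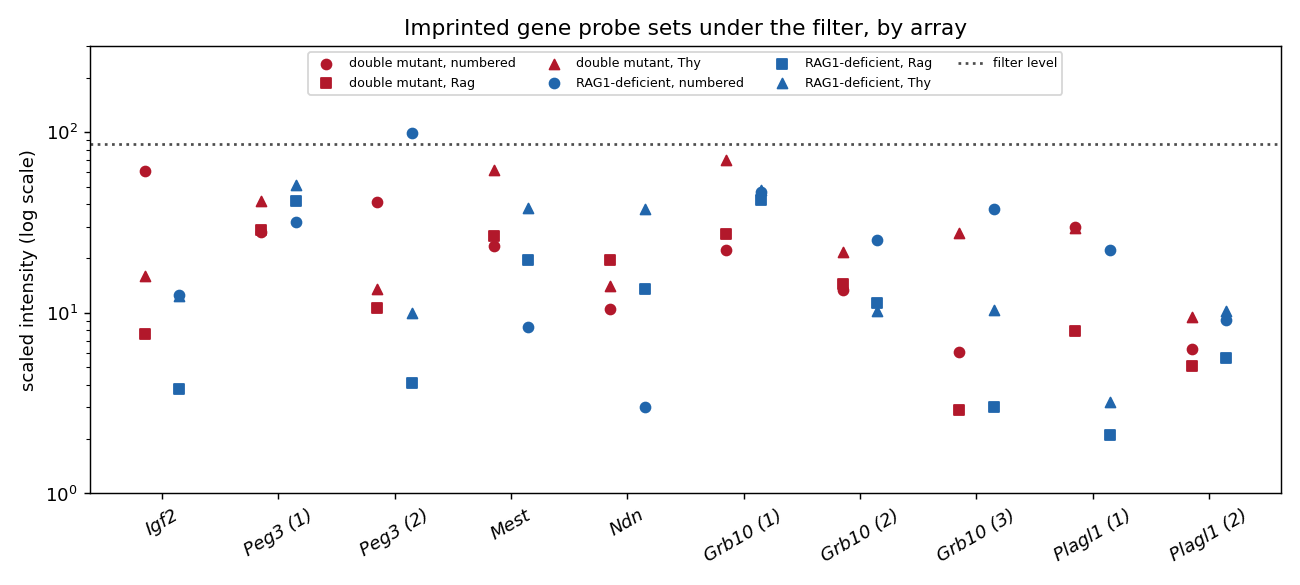
Scaled intensity (log axis) on each array of the 10 imprinted gene probe sets under the filter, double mutant in red left of RAG1-deficient in blue, with marker shape giving the title style and the dotted line the filter level; numbers in brackets order the probe sets of a gene by mean intensity. A single value of 60, on RAG1-deficient replicate 1 for Peg3, exceeded 86.5.

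The 10 probe sets under the filter held 3 genes, Mest, Grb10 and Plagl1, with no brighter probe set. Their intensities lay between 2.1 and 99.2, with 1 of 60 values above the filter level. Of the 10, 6 were lower and 4 higher in the double mutant by log2 differences between -0.21 and 0.52. None of the 10 separated the groups. When all 12422 probe sets were tested, the smallest adjusted p of the 10 was 0.9999 in the unpaired and 0.510 in the paired limma fit. Probe sets of one gene often disagreed: of the 5 genes with more than 1, Ndn alone had all of them on one side of 0.

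**Figure D3:**
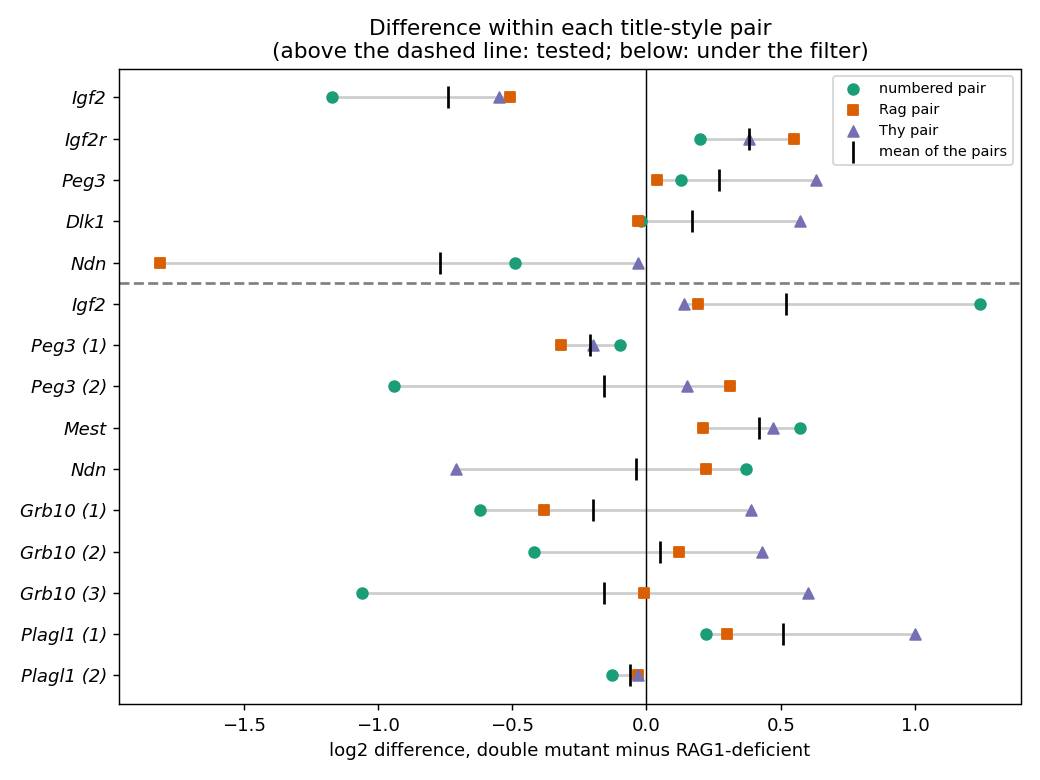
Log2 difference, double mutant minus RAG1-deficient, within the numbered (circle), Rag (square) and Thy (triangle) pair for all 15 imprinted gene probe sets, with a black tick at the mean of the pairs; the 5 tested ones stand above the dashed line. The tested Igf2 and Ndn probe sets lie left of 0 in every pair, Igf2r and Peg3 lie right of 0 in every pair, and the dimmer Igf2 probe set lies on the opposite side to the tested one.

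The Rag arrays gave the lowest values for several of these genes. Igf2r, Dlk1 and the tested Peg3 probe set had their 2 lowest values on the 2 Rag arrays, which was so for 27.2% of all tested probe sets. The same 2 arrays had the lowest median intensities (125 for the double mutant and 122 for the RAG1-deficient array, against 167 to 180 on the other 4) and the highest ratios of 3′ to 5′ signal for the actin gene Actb (2.80 and 2.23, against 1.25 to 1.98), a sign of RNA quality, whose part in this was not tested. The highest value of each of these 3 was on double mutant replicate 3, of the Thy style. Igf2 and Ndn did not follow that order: both had their lowest value on a double mutant array and their highest on a RAG1-deficient array.

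Genes that lie in the same imprinted regions were examined next. Of 17 such neighbours in 6 regions 8 were tested, with log2 differences between -0.69 and 0.19, and 0 passed. In the joined region of Igf2 and Kcnq1, 6 of 10 neighbours were tested (Tspan32, Cd81, Tssc4, Kcnq1, Slc22a18 and Nap1l4). Between 9 and 22 annotated genes separate these 6 from Igf2. The nearest of the 10, Ins2, lay under the filter and H19 was not used, so no neighbour close to Igf2 was tested. The log2 differences of the 6 lay between -0.14 and 0.19, nearer to 0 than that of Igf2, though this was not tested. Outside the rule for naming genes, chosen for their known link to the complex in mouse placenta after values were seen, the cell cycle inhibitor gene Cdkn1c and the placental transcription factor gene Ascl2 of that region lay under the filter. Cdkn1c was at 54.4, 35.9 and 84.1 on double mutant arrays, against 91.3, 30.8 and 24.2 on RAG1-deficient arrays. Ascl2 was at 100, 33.0 and 49.8 on double mutant arrays, against 229, 22.6 and 36.0 on RAG1-deficient arrays. Both sets of values overlapped. Phlda2 of the same region, also under the filter and added after its values were seen, came closer to Igf2. It was at 21.5, 42.0 and 56.8 on double mutant arrays, against 96.5, 52.5 and 85.7 on RAG1-deficient arrays. The groups overlapped, each pair was lower, and the log2 difference was -0.70. It was 0.25 for Cdkn1c, -0.14 for Ascl2 and -0.13 for the brighter Ins2 probe set. Meg3, the maternally read RNA beside Dlk1, did not exceed 83.3 in either of 2 probe sets and gave log2 differences of -0.22 and -0.01.

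Over a wider list of 62 further imprinted genes, 37 were on the array and 20 tested. The list includes genes imprinted in particular tissues, and the arrays cannot show which of them are imprinted in thymocytes. Of the 20 tested, 9 lay above and 11 below 0 with a median log2 difference of -0.03, and 0 passed in either limma fit. The groups did not overlap for 2 higher (Gatm and Gab1) and 1 lower (Ddc), beside 4.21% higher and 2.92% lower of all tested probe sets. Gatm, the first enzyme of creatine synthesis, was at 215, 244 and 274 on double mutant arrays, against 104, 147 and 134 on RAG1-deficient arrays. All double mutant arrays lay above all RAG1-deficient arrays, and the log2 difference, 0.83 ± 0.28 (SE), did not reach the threshold (limma adjusted p = 0.9999 unpaired and 0.159 paired). Gab1, a docking protein of growth factor receptors imprinted in the placenta, was at 225, 107 and 144 on double mutant arrays, against 77.1, 74.1 and 11.2 on RAG1-deficient arrays. Its 3 double mutant values were the only ones above the filter, so it entered the test only through the group where it is high, and its separation is given as a description. It differed by 1.34 ± 0.53 (SE) on the log2 scale, which did not reach the threshold (paired limma adjusted p = 0.217) except without the Rag pair (1.80, adjusted p = 0.0204), and a dimmer Gab1 probe set overlapped and gave 0.45. Ddc, the decarboxylase gene in the region of Grb10, was at 145, 133 and 178 on double mutant arrays, against 365, 252 and 185 on RAG1-deficient arrays. It was lower without overlap, with -0.69 ± 0.31 (SE) on the log2 scale, and missed the threshold (paired limma adjusted p = 0.321). Pon3, Sfmbt2 and Dcn overlapped, with log2 differences of -0.51, 0.26 and -0.60. These sizes depended on single arrays or pairs: with each left out in turn they ran between -0.82 and -0.23 for Pon3, 0.11 and 0.40 for Sfmbt2 and -1.33 and -0.06 for Dcn.

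**Figure D4:**
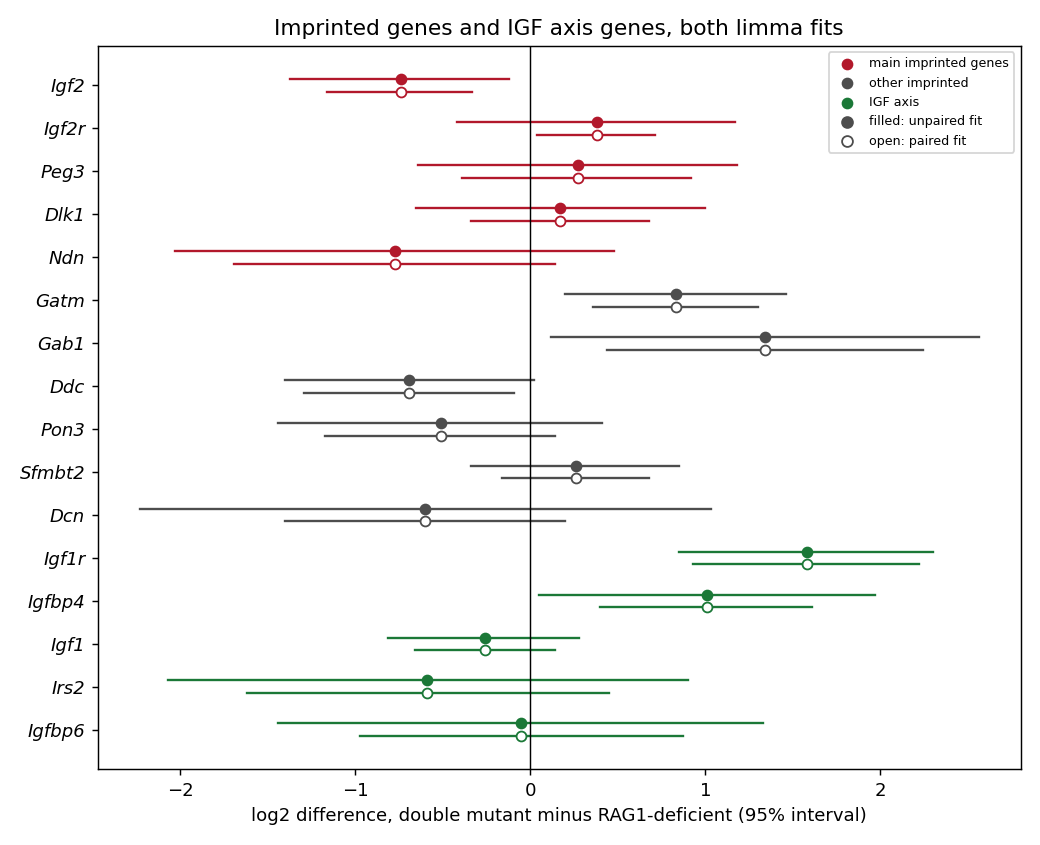
Log2 difference, double mutant minus RAG1-deficient, with 95% intervals from the unpaired (filled) and paired (open) limma fits for the 5 tested imprinted genes (red), 6 further imprinted genes (grey) and 5 genes of the insulin-like growth factor system (green). Intervals of single genes are not adjusted for the number of tests; Igf1r has the difference farthest from 0 (1.58), and none of the 16 passed an adjusted p of 0.05 in either fit with all arrays.

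Of 12 listed genes whose products help keep imprints in place, 10 were on the array and 8 tested, 4 above and 4 below 0, with a median log2 difference of 0.06, and 0 passed in either limma fit. Zfp57, the reader of the hexamer searched above, lay under the filter on all 6 arrays, at 9.9 to 19.7 on double mutant arrays and 11.4 to 27.0 on RAG1-deficient arrays. Dppa3, which protects imprints in the early embryo, did so too, at 20.5 to 35.8 on double mutant arrays and 21.2 to 47.0 on RAG1-deficient arrays. The maintenance DNA methyltransferase gene Dnmt1 gave 3749, 2130 and 3860 on double mutant arrays, against 3398, 1993 and 2705 on RAG1-deficient arrays, higher in each pair with overlapping groups (log2 difference 0.25 ± 0.31 SE, paired limma adjusted p = 0.450). The log2 difference was -0.27 for its partner Uhrf1, 0.20 for the histone methyltransferase gene Setdb1, 0.14 for the corepressor Trim28, -0.13 for the insulator protein gene Ctcf and 0.24 for Eed, a subunit of Polycomb repressive complex 2. None of these 6 passed in either limma fit, and the 95% intervals of the unpaired fit lay within -0.95 and 0.95.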

How the data were processed

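The authors deposited linear intensities, 1 per array for 12488 probe sets on 6 arrays. Which software made them is not given in the sources used here. The 2%-trimmed mean lay between 500.293 and 500.37 on every array, so arrays had been scaled to a common mean before deposit, which would hide a shift shared by most transcripts. No detection calls were used, and precision is limited by how many arrays there are.

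Samples were grouped by their descriptions. The 66 control probe sets were left out. Genes were named from the platform's probe table through the Entrez number and a RefSeq table of GRCm38.p6 (10817 of 10833 single-gene probe sets matched, 0 symbols changed). All tests ran on log2(intensity + 23), 23 being the rounded 20th percentile of all values and 86.5, the filter level, their 40th. limma 3.58.1 in R 4.3.3 (lmFit, eBayes with a trend) compared the groups over all 7642 tested probe sets with Benjamini-Hochberg adjustment, two-sided; the code was tested on simulated data. Title style pairs the arrays by the titles and by correlations above the limit of 0.1; no label states a shared batch. In list counts the brightest tested probe set stands for a gene. Named genes are all probe sets of the imprinted genes given and, in each further list, those that passed or the 6 with the smallest unadjusted p. The members and lists were chosen with earlier results of these data known. Permutation tests used SciPy 1.17.1, and figures were drawn with matplotlib 3.10.9.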

Additional observations from a re-analysis of the deposited data

How the results depend on the processing

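The 5 tested imprinted probe sets gave 0 calls with all arrays under every alternative tried (title style as a replicate block, quantile scaling, pseudocounts of 1 and 100, no filter, no trend, and the block with quantile scaling or no filter). With arrays or pairs left out there were 0 to 1 calls, the 1 being Igf2 without the Rag pair, and their median log2 difference lay between -0.13 and 0.44. Over all probe sets the unpaired fit called 3 higher and 0 lower, the fit with title style as a replicate block 43 and 8, quantile scaling 5 higher, the block with quantile scaling 17 and the block without the filter 5. Leaving out single arrays gave 0 to 6 higher, and 0 lower, and leaving out a pair, with the block, gave 12 higher and 2 lower (numbered), 127 and 64 (Rag) and 3 and 0 (Thy). Of 374 values of 22 named genes under 17 alternatives, 359 kept direction and side of the threshold, 4 newly passed, all without the Rag pair, and 11 changed sign. The sign changes were Dlk1 (-0.13 to 0.45 with single arrays left out, -0.02 without the Thy pair), Irs2 (-1.21 to 0.04 with arrays or pairs left out) and Igfbp6 (-0.63 to 0.4 with single arrays and -0.38 to 0.49 with pairs left out, 0.0036 with quantile scaling, with or without the block, and 0.01 with a pseudocount of 100). The cause was not tested. The paired fit changed no call among the named genes. Most imprinted probe sets lay under the filter, where a difference could not be told from the spread.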

Other observations

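Usp29, the imprinted neighbour of Peg3, lay under the filter on all 6 arrays and was chosen here after its values were seen. It was at 7.7, 2.8 and 4.8 on double mutant arrays, against 27.0, 20.2 and 29.8 on RAG1-deficient arrays, lower in each pair and without overlap, with a log2 difference of -0.79. A lower value without overlap was seen for 2.92% of all tested probe sets, to which Usp29 does not belong. Without the filter Usp29 missed the threshold in both limma fits (adjusted p = 0.916 unpaired and 0.252 paired).

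Xist, the RNA that silences one X chromosome in females and that is itself imprinted in the placenta, was above the filter on every array but differed widely between arrays of a group. It was at 4186, 1458 and 2423 on double mutant arrays, against 5414, 794 and 9482 on RAG1-deficient arrays, and the log2 difference of -0.49 ± 0.81 (SE) missed the threshold in both limma fits (paired adjusted p = 0.690). The Xist values were chosen after they were seen.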
